A study of Homo sapiens with 18 samples.

Results

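The effect of low oxygen on MDA-MB-231 cells that also received epirubicin was described from 6 arrays, 3 titled H epi and 3 titled N epi, of 18 in the series. MDA-MB-231 is an established human breast cancer line of mesenchymal-like, triple-negative character. All 6 cultures received 10 µM epirubicin for 16 h in serum-free medium, the N epi cells at 20% oxygen (normoxia) and the H epi cells at 1% oxygen (hypoxia). The other 12 arrays held cells without drug (N and H, the control cells) and cells given paclitaxel at 50 µM (H tax and N tax), 3 arrays per condition. They were used for the shared estimate of the spread, and the effect of hypoxia in control and paclitaxel-treated cells is given beside that with epirubicin; only the difference from the control cells was tested. RNA was hybridized to Affymetrix human genome arrays. The values are log2 GC-RMA signals, so a difference of 1 unit is a change of 2-fold. The study's text describes the 3 arrays of a condition as biological replicates from independent experiments, which the sample labels themselves do not state.

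Hypoxia acts on transcription mainly through the hypoxia-inducible factors (HIF). Their alpha subunits are hydroxylated and degraded while oxygen is plentiful and accumulate when it is scarce, after which they bind DNA with ARNT and raise genes of glucose uptake, glycolysis, pH control, angiogenesis and mitophagy. Epirubicin is an anthracycline that intercalates into DNA and traps topoisomerase II, and anthracyclines are known to interfere with transcription as well as with replication. The question addressed here was which transcripts differed between 1% and 20% oxygen while the drug was present.

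Before any comparison, 2 properties of the arrays had to be set out. For the arrays numbered 3, title and source name disagreed on the drug but not on the oxygen level, and groups were taken from the titles. N epi 3 correlated with the arrays of its title at 0.9890 or more and with those of its source name at 0.9476 or less, and H epi 3 at 0.9949 or more and at 0.9401 or less. N epi 2 stood apart: 8.05% of the tested probe sets lay more than 1 log2 unit from the mean of the other N epi arrays, against 4.01% or less on each of the other 17 arrays. Of the 24424 probe sets tested, 1829 lay more than 1 unit above N epi 1 and 3 on that array and 136 lay more than 1 unit below. Its mean correlation with the N arrays was 0.9786, against 0.9587 and 0.9585 for N epi 1 and 3. Results are therefore given also without N epi 2 and with the arrays numbered 1 and 2 only, above all where the call changed.

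Between 40.7% and 41.2% of all probe sets were present on the 6 arrays. The upper quartile of the signal was 6.30, 6.59 and 6.32 on N epi 1 to 3 and 6.33, 6.07 and 6.27 on H epi 1 to 3. Of these 6 arrays it was highest on N epi 2 and lowest on H epi 2. On the arrays without epirubicin it was higher, from 6.81 to 6.94. The part of the quartile in the results was not tested. Of 8 genes of mesenchymal-like breast cancer cells, 7 were present on all 6 arrays, among them VIM, CD44 and CAV1, and SPARC was present on none. Of 9 luminal markers, 4 were present on all 6 arrays and 3, among them CDH1 and FOXA1, on none. Their summed linear signal ran from 1922 to 3270 in N epi and from 1416 to 2090 in H epi, with XBP1 at 9.84 on N epi 2 and at 5.88 and 5.74 on N epi 1 and 3. The part of these markers in the results was not tested. Of 6 leukocyte markers, 6 were present on no array. Of 9 hepatocyte markers 5 and of 9 keratinocyte markers 7 were present on none. In these bulk samples, fewer cells and less RNA per cell cannot be told apart.

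Of the 24424 probe sets, 1080 (4.42%) were lower and 222 (0.909%) were higher in H epi than in N epi at an adjusted p under 0.05 (limma over all 18 arrays, Benjamini-Hochberg). With all arrays the falls were also the larger changes: 453 were at least 2-fold and 45 at least 4-fold, against 32 rises of at least 2-fold, 0 of at least 4-fold and a largest rise of 3.27-fold. The median log2 difference was -0.91 for the falls and 0.63 for the rises. Without N epi 2 these medians were closer in size, at -0.72 and 0.61. Without N epi 2, 646 (2.64%) were lower and 135 (0.553%) higher. Of the 1080, 566 were also lower without that array, and of the 222, 95 were also higher. With the arrays numbered 1 and 2 only, 270 (1.11%) were lower and 89 (0.364%) higher, of which 221 and 47 were among the calls from all arrays. When the 6 arrays were fitted alone, 0 probe sets passed in either direction and 2678 had an unadjusted p under 0.05, so every call below rests on the spread estimated across the 6 conditions. With the arrays numbered 3 grouped by source name, 0 passed as well (293 at an unadjusted p under 0.05), so the calls rest on the titles too. The spread was not equal among the conditions that share its estimate. Per epirubicin array, 1.55% to 8.05% of tested probe sets lay more than 1 unit from the mean of the condition's other arrays. On the arrays without epirubicin the share was 0.168% to 0.843%. The SE, intervals and p-values given for H epi against N epi can therefore be too small. Leaving out H epi 2 gave 467 lower, leaving out N epi 3 gave 1644 lower and 346 higher, and testing without the presence filter gave 507 lower. With every array centred on its median, which moved the median difference of all probe sets from 0.00 to 0.15, 914 were lower and 614 higher; with quantile normalization, 951 and 452.

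In control cells the same drop in oxygen gave more calls, 1769 higher (7.24%) and 3212 lower (13.2%) in H than in N. Of those 1769 probe sets, the H epi mean exceeded the N epi mean for 1047 (59.2%), where the median difference of all probe sets was 0.0015. Of the 1769, 10 passed the test as higher (0.565%) and 52 as lower (2.94%), against 0.909% and 4.42% of all probe sets. Of the 3212, 166 were lower (5.17%) and 20 higher (0.623%) in H epi, beside the same shares of all probe sets. The difference between the hypoxia effect with epirubicin and that in control cells, tested as an interaction, was below 0 for 1263 probe sets (5.17%) and above 0 for 1674 (6.85%).

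The largest falls were those of SOX4, CXCR4 and SOX9. SOX4 and SOX9 are transcription factors of progenitor and mesenchymal programs, and CXCR4 is the receptor for the chemokine CXCL12 and a gene of cell migration. SOX9 fell by 3.37 (SE 0.47) log2 units, and for SOX4 and CXCR4, whose H epi arrays were not above background, a lower bound of the fall is given. The fitted differences of SOX4 and CXCR4, by which they were ordered, were -4.12 and -3.68. All 12 of the largest falls remained past the test without N epi 2, and 6 of 12 with the arrays numbered 1 and 2 only.

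SOX4 read 6.05, 8.73 and 5.81 on N epi 1 to 3 and 2.83, 2.72 and 2.68 on H epi 1 to 3. All H epi arrays were under the presence threshold of 3.23, so the fall was at least 12.4-fold with all arrays (adjusted p = 0.0007428) and at least 6.48-fold without N epi 2. It passed also with the arrays numbered 1 and 2 only. Of its 4 tested probe sets, 3 were lower. CXCR4 read 6.37, 8.05 and 5.92 in N epi and 3.11, 3.05 and 3.15 on the H epi arrays, a fall of at least 11.7-fold with all arrays (adjusted p = 0.0005989) and at least 7.54-fold without N epi 2. For this gene the N arrays averaged 5.45 and the H arrays 5.94, so the N epi mean of 6.78 lay above the cells without drug and the H epi mean of 3.10 below them. SOX9 read 7.31, 9.57 and 6.78 in N epi and 4.76, 4.06 and 4.71 on the H epi arrays, a fall of 2.53 without N epi 2, and both of its probe sets were lower.

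KRCC1, which encodes a lysine-rich coiled-coil protein, had the smallest adjusted p of the 12, 1.673e-05. It read 6.23, 6.79 and 5.43 in N epi and 3.32, 3.29 and 3.25 on the H epi arrays, and N epi 2 lay within 1 unit of another N epi array. Its other probe sets, at higher signal, fell by 2.04 and 1.72. In control cells KRCC1 moved the other way, with a rise of 0.78 from N to H (adjusted p = 0.026), and it was the only one of the 12 to pass the test there. The interaction was -3.65 (SE 0.33).

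Of the remaining 8, FOXQ1 and FOXO3 encode forkhead transcription factors, BAMBI a decoy receptor of TGF-beta signalling, SIAH1 a ubiquitin ligase, DCP1A an activator of mRNA decapping, NUFIP2 an RNA-binding protein, NAA30 the catalytic subunit of an N-terminal acetyltransferase and PHLDA1 a pleckstrin homology-like protein. Their fitted differences ran from -3.18 (FOXQ1) to -2.65 (NAA30). In these genes N epi 2 carried much of the difference. FOXQ1 read 5.45, 9.44 and 4.61 in N epi and 3.31, 3.31 and 3.36 on the H epi arrays, and its fall was 1.71 without N epi 2. SIAH1 read 4.68, 7.80 and 4.68 in N epi and 2.89 on all 3 H epi arrays, under the presence threshold, a fall of at least 5.59-fold, and of at least 2.72-fold without N epi 2. PHLDA1 read 4.60, 8.65 and 4.31 against 3.01, 2.62 and 2.79, also all under the threshold, a fall of at least 6.14-fold, and of at least 2.33-fold without N epi 2, and 3 of its 6 probe sets were lower. The brightest probe sets of PHLDA1 and FOXO3 did not pass (differences of -0.95 and -2.17). The 12 genes shared an order: N epi 2 was the highest N epi array in 12 of 12, and, as the rule for naming them required, no H epi array overlapped any N epi array. N epi 2 was thus the highest of the 6 arrays, as in 6292 of all 24424 probe sets. A high N epi 2 also enlarges the difference by which the 12 were ranked. In 11 of 12 the N epi mean lay under the N mean, CXCR4 being the exception. This share was not counted over all probe sets, and the upper quartile of the signal was lower on the epirubicin arrays.

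**Figure D1:**
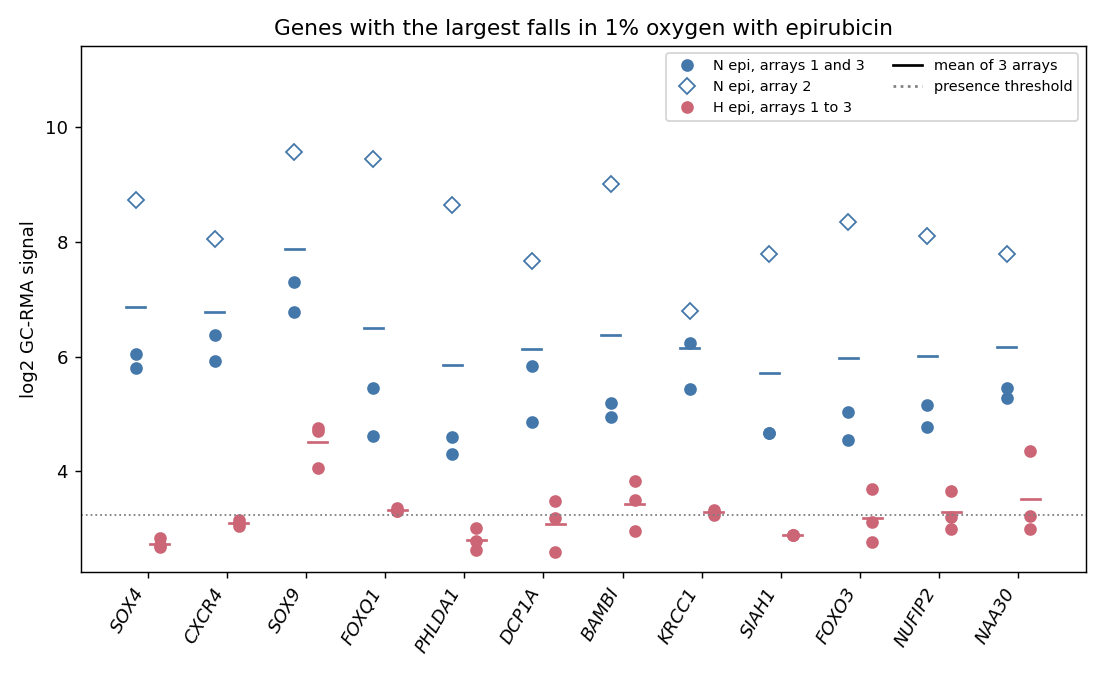
Signal (log2 GC-RMA, vertical axis) of the 12 genes with the largest falls, with a point for each array, short bars at the mean of 3 arrays and a dotted line at the presence threshold of 3.23. Every H epi point lies below every N epi point of its gene, and N epi 2 (open diamonds) lies above the other N epi arrays in all 12.

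The rises were smaller, and most lay in weak probe sets. MALAT1, a long non-coding RNA retained in the nucleus, was the largest. Its most changed probe set read 5.66, 5.32 and 5.81 in N epi and 7.55, 7.08 and 7.30 on the H epi arrays, a rise of 1.71 (SE 0.20, adjusted p = 0.0005989), and 1.57 without N epi 2. Of the 11 MALAT1 probe sets tested, 7 were higher, of which 3 also passed without N epi 2. The brightest, which did not pass without N epi 2, read 9.16, 8.51 and 9.46 in N epi and 9.97, 10.35 and 10.21 on the H epi arrays. Several of them are of the type that can also bind other transcripts, by their names. In cells without drug the most changed probe set was under the presence threshold on average, at 2.90 in N.

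For 9 of the 12 largest rises, the gene's brightest probe set did not pass the test. PRCP, a lysosomal carboxypeptidase, rose in a probe set that read 3.05, 2.73 and 2.56 in N epi and 3.79, 4.41 and 4.08 on the H epi arrays (at least 1.81-fold), while its brightest probe set read 11.91, 11.91 and 12.08 and then 11.97, 11.90 and 12.03. VMA21, an assembly factor of the vacuolar proton pump, rose from 2.95, 2.91 and 2.73 to 4.37, 4.18 and 3.74 (at least 1.81-fold, adjusted p = 0.000117). The probe sets that rose in PRCP and VMA21 were above the presence threshold on the H epi arrays only, and entered the test through them. That of VMA21 hardly varied without epirubicin (SD of 0.0052 or less per condition), which narrows the shared spread. The brightest probe set of VMA21 differed by 0.24 (adjusted p = 0.181). The same split was seen for PSMD9, a chaperone of proteasome assembly, which rose by 1.18 at one probe set and differed by 0.03 at the brightest. PARL, a mitochondrial rhomboid protease, rose by 1.30, PSPC1, a paraspeckle protein, by 1.11, GM2A, the GM2 ganglioside activator, by 1.09, and CYB5RL, related to cytochrome b5 reductases, by 1.69. ATPAF1, an assembly factor of ATP synthase, and ABHD11, a mitochondrial hydrolase, both rose by 1.09. The brightest probe sets of these 6 differed by 0.01 to 0.29 and did not pass. The probe set of PARL that rose read 3.32, 2.46 and 3.06 in N epi, and it too entered the test only through the H epi arrays. CCDC3, a secreted coiled-coil protein, rose by 1.39 and AFMID, the kynurenine formamidase, by 1.12, each in the single probe set tested. PARL and PSPC1 no longer passed without N epi 2. With the arrays numbered 1 and 2 only, 5 of the 12 rises passed: MALAT1, CYB5RL, PRCP, VMA21 and AFMID. Like that of VMA21, the probe sets of CYB5RL and AFMID that rose varied little without epirubicin, which narrows their shared spread. Their SD there was at most 0.0066 and 0.076 per condition, against 0.85 and 0.76 in N epi.

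Across all calls, 61 of the 180 higher probe sets with 1 gene symbol were the brightest of their gene (33.9%), against 677 of 985 lower ones (68.7%) and 53.9% of all those tested. The median signal of the 222 higher probe sets was 4.07 in N, 4.56 in N epi and 5.35 in H epi. The step from N epi to H epi is fixed by how this set was chosen. Fewer genes rose when each gene was counted by its brightest probe set: of 11287 genes, 61 were higher and 677 lower.

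**Figure D2:**
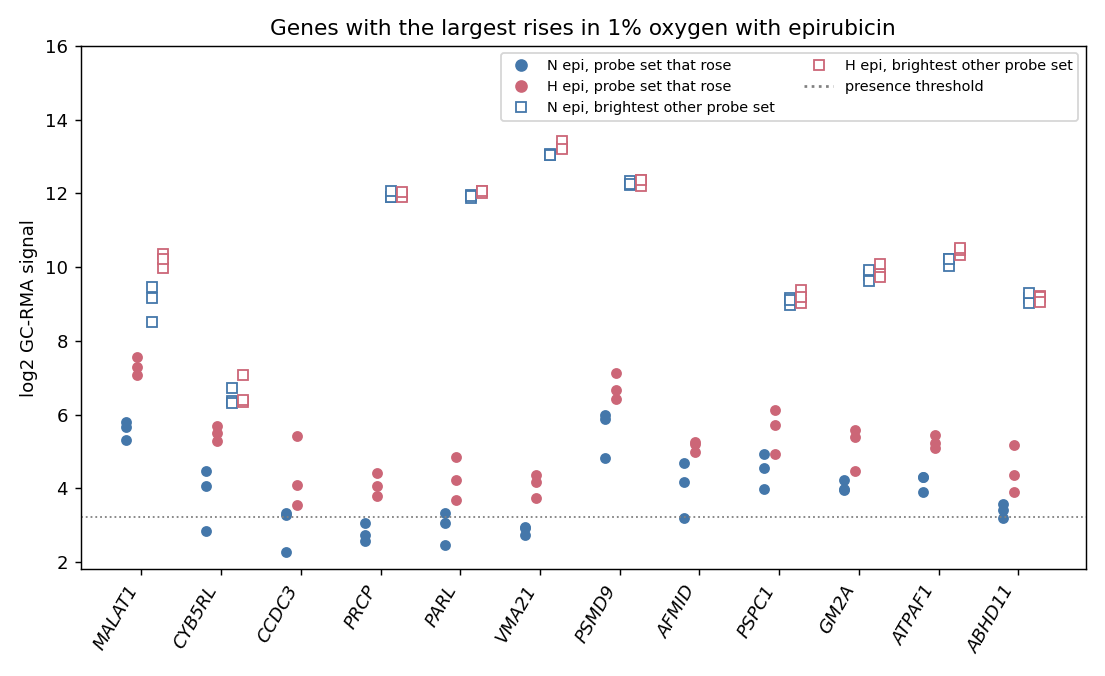
Signal (log2 GC-RMA, vertical axis) of the 12 genes with the largest rises. Filled points are the arrays of the probe set that rose and open squares those of the gene's brightest probe set where that is a different one, with a dotted line at the presence threshold of 3.23. The squares of N epi and H epi lie level in most genes, while MALAT1 is higher in H epi in both.

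No established hypoxia-response gene passed the test as higher in H epi. Of 33 tested, 0 were higher and 2 lower than in N epi, with a median difference of -0.15, against a median of -0.02 over all 11287 genes, of which 0.54% were higher and 6% lower. The 2 falls are thus a share close to that of all genes. In control cells 28 of the same 33 were higher in H than in N (median 2.41), and with paclitaxel 25 rose from N tax to H tax (median 1.70). The interaction against the control cells was below 0 for 30 of 33. In H epi the mean of all 33 lay under that of the H arrays. The share over all probe sets was not counted, and the H epi arrays had the lower upper quartile of the signal.

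BNIP3, a mediator of mitophagy, read 12.73, 12.85 and 12.57 in N epi and 12.89, 12.80 and 12.65 on the H epi arrays. The difference was 0.07 with a 95% interval of -0.20 to 0.33, whereas H exceeded N by 2.53. NDRG1, a stress-response gene, read 10.29, 10.88 and 10.55 and then 10.32, 10.08 and 10.24. Its difference was -0.36 (interval -0.76 to 0.04), against 3.23 in control cells. For both genes the arrays of N epi and H epi overlapped.

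SLC2A1, the basal glucose transporter, differed by 0.05 (interval -0.26 to 0.35) in the presence of the drug. P4HA1, a collagen prolyl hydroxylase, differed by -0.12 (interval -0.43 to 0.19), and was 3.32 higher in H than in N. EGLN3, an oxygen sensor that is itself a HIF target, read 3.03 on 5 of the 6 arrays and 2.53 on N epi 2, under the presence threshold throughout, and reached 6.92 in H. MIR210HG, the host transcript of the hypoxia-induced microRNA miR-210, read between 2.28 and 2.42 on the 6 arrays and 8.80 in H. ANGPTL4, a regulator of lipoprotein lipase, read 4.56 on all 6 arrays. Equal values on several arrays also occurred at high signal, such as 9.20 for SIAH1 on N 1 and N 2, so they do not by themselves mark a floor. EGLN3 and MIR210HG were thus under the presence threshold at both oxygen levels when epirubicin was present. ANGPTL4 was above it and did not differ.

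The 2 members that fell were VEGFA, the main angiogenic growth factor, and RAB20, a small GTPase. VEGFA read 8.76, 11.13 and 9.01 in N epi and 7.71, 7.85 and 7.97 on the H epi arrays, a fall of 1.79 (SE 0.41, adjusted p = 0.02086), and of 1.04 without N epi 2. Of its other probe sets, 2 fell by 1.42 and 1.88 and the remaining one differed by -0.50. In control cells VEGFA was high at both oxygen levels, at 13.23 in N and 13.69 in H. RAB20 read 5.01, 6.03 and 5.01 in N epi and 3.10, 4.24 and 3.72 on the H epi arrays, a fall of 1.66, and in control cells it rose by 1.83. Neither passed with the arrays numbered 1 and 2 only.

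Other members had lower means in H epi without passing, and in these N epi 2 was far above the rest. DDIT4, an inhibitor of mTORC1, read 3.86, 10.28 and 3.84 in N epi and 3.80, 3.30 and 3.86 on the H epi arrays. ADM, the vasodilator adrenomedullin, read 7.24, 9.68 and 6.30 and then 5.92, 6.32 and 6.30 (adjusted p = 0.1427). BHLHE40, a clock repressor, read 4.01, 7.30 and 2.83 and then 3.29, 2.98 and 2.83. N epi 2 was the highest of the 6 arrays in 17 of the 33 genes, and in 12 it exceeded the mean of N epi 1 and 3 by more than 1 unit. Over all 24424 probe sets these counts were 6292 and 1829.

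**Figure D3:**
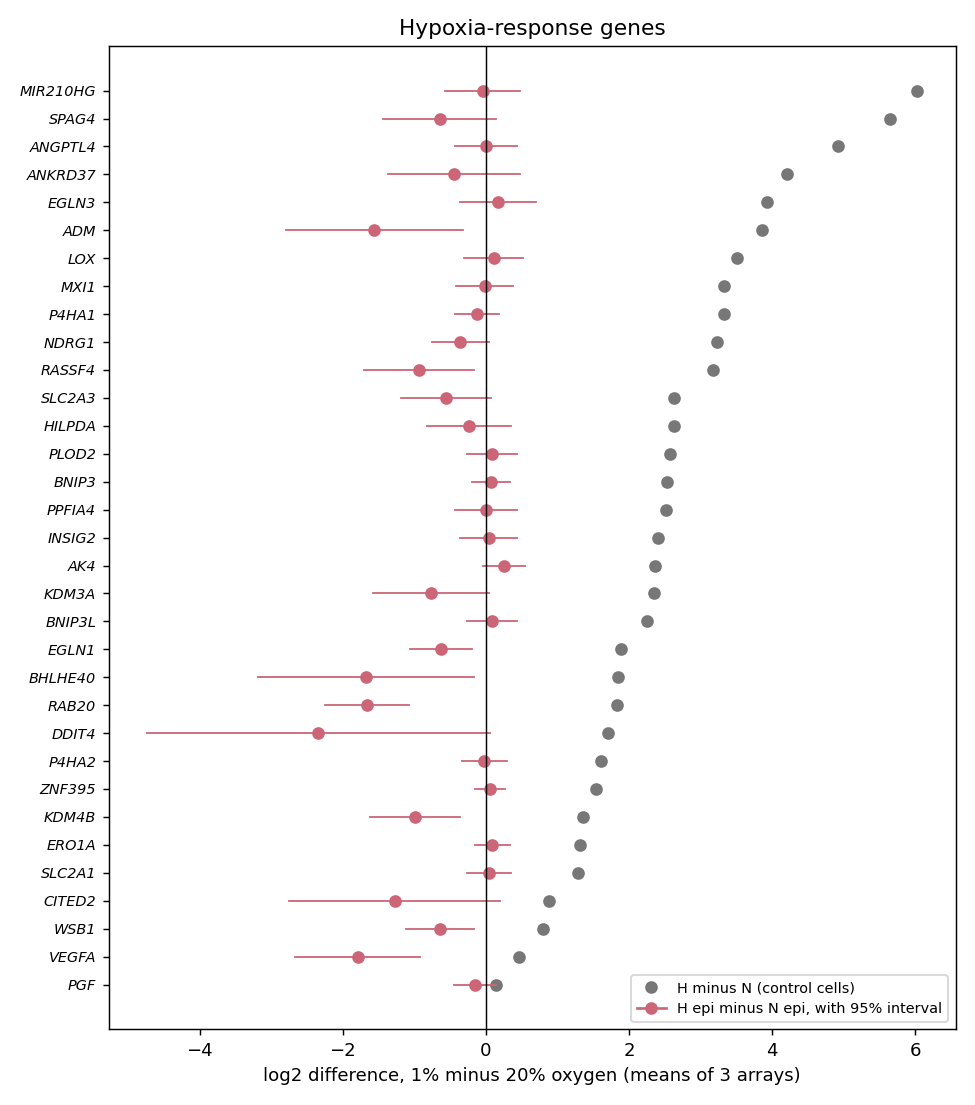
Differences between 1% and 20% oxygen (log2, horizontal axis) of the 33 hypoxia-response genes, in control cells (grey) and in epirubicin-treated cells (red, with the 95% interval of the fit). The grey points reach 6.02 while the red points lie at or below 0.25.

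The core of the DNA element bound by HIF is ACGTG. It was searched for on both strands in the 250 bases before the start of each gene, in the RefSeq promoter table of GRCh38.p14, where it also lies inside the E-box CACGTG of other factors. Of the 33 hypoxia-response genes 25 had an entry, and 17 of these held the motif (68%), against 24.0% of 9292 promoters of genes tested, 18.7% of all 27305 promoters and 24.4% of 701 promoters of genes that were lower in H epi. CACGTG itself stood in 8 of the 25 and in 9.1% of the 9292. A match describes the sequence and is not a binding site. The 4 windows below, each 25 bases 5′ to 3′ on the gene's strand with the motif or its reverse complement CACGT in capitals, belong to the members with the highest H over N difference that hold a match, and are shown because they rose most in control hypoxia and did not pass the test in H epi. They are MIR210HG (chr11:568613-568637, minus strand), ANGPTL4 (chr19:8363911-8363935, plus strand), ANKRD37 (chr4:185396688-185396712, plus strand) and LOX (chr5:122078287-122078311, minus strand), and the motif centre lies 168, 232, 141 and 40 bases before the start.
MIR210HG: ccccgggcagACGTGcagaaaagaa
ANGPTL4: aaagaagagtCACGTctcccacggt
ANKRD37: gtgtttgtgtACGTGcggccgtggc
LOX: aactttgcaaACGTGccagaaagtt
MIR210HG, ANGPTL4, ANKRD37 and LOX, the last an extracellular lysyl oxidase, differed by -0.05, 0.00, -0.45 and 0.11 between H epi and N epi, and by 6.02, 4.92, 4.21 and 3.52 between H and N.

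No glycolytic gene passed the test. Of 25 tested, 0 were called in either direction (median 0.08), where 21 rose from N to H (median 0.75) and 21 from N tax to H tax. ALDOC, a fructose-bisphosphate aldolase, read 5.90, 6.10 and 6.17 in N epi and 6.73, 5.78 and 5.50 on the H epi arrays. Its difference of -0.05 (interval -0.60 to 0.50) compares with 5.38 in control cells. PDK1, which restrains pyruvate entry into the mitochondria, read 8.24, 8.13 and 8.26 and then 8.26, 8.26 and 8.39, a difference of 0.09 against 2.94. ENO2, an enolase, differed by 0.19 and the regulators of fructose 2,6-bisphosphate PFKFB3 and PFKFB4 by -0.71 and -0.45, none past the test. PFKFB4 was close to the presence threshold on all 6 arrays, between 3.09 and 3.98, and averaged 8.97 in N. N epi 2 was the highest of the 6 arrays in 2 of these 25 genes, against 6292 of all 24424 probe sets.

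Among 12 genes of HIF subunits and hydroxylases, 0 were higher and 1 lower. HIF1A read 13.14, 13.46 and 13.20 in N epi and 13.20, 13.32 and 13.26 on the H epi arrays, a difference of -0.01 (interval -0.33 to 0.31). In control cells its transcript fell by 1.90, and the interaction was 1.90 (SE 0.21, adjusted p = 5.8e-05). EPAS1, the HIF-2 alpha subunit, differed by -0.51 and ARNT by 0.16, and neither passed. EGLN1, the main HIF prolyl hydroxylase, differed by -0.63 (adjusted p = 0.08682), where it was 1.88 higher in H than in N. The member that fell was HIF1AN, an asparaginyl hydroxylase that limits HIF activity, which read 6.09, 6.54 and 6.33 in N epi and 5.10, 4.43 and 5.40 on the H epi arrays, a fall of 1.34 (adjusted p = 0.001543) that held with the arrays numbered 1 and 2 only. Its other probe sets differed by 0.06 and -0.01, so the probe sets of this gene disagree.

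The genes with the lowest interaction had all risen in control hypoxia. SPAG4, a sperm-associated nuclear envelope protein, read 6.72, 6.81 and 6.69 in N epi and 6.76, 4.83 and 6.70 on the H epi arrays, with H epi 2 apart from the rest, and was 5.64 higher in H than in N. DEPP1, a FOXO-regulated autophagy modulator, stayed between 2.42 and 2.53 on the 6 arrays and rose by 5.94 in control cells. Their interactions were -6.28 (SE 0.52) and -5.90 (SE 0.45). MIR210HG had an interaction of -6.07 and ALDOC of -5.43. That of ADM (-5.41) joined a rise of 3.85 in control cells with the difference of -1.56 in epirubicin-treated cells, which was -0.59 without N epi 2.

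The genes with the highest interaction had fallen in control hypoxia and did not pass the test with the drug. TFRC, the transferrin receptor, read 14.37, 14.23 and 14.46 in N epi and 13.87, 13.76 and 13.70 on the H epi arrays. That difference of -0.57 did not pass (adjusted p = 0.1457), although the arrays did not overlap, and in control cells TFRC fell from 12.98 to 9.38. Its interaction was 3.02 (SE 0.30). SLC7A11, the cystine transporter, read 7.22, 6.56 and 7.49 and then 7.51, 6.68 and 7.81, with an interaction of 2.81, and 2 of its brighter probe sets gave 0.91 and 0.87, which did not pass. SCLT1, a centriole appendage protein, WDR4, a tRNA methyltransferase subunit, RRS1, a ribosome biogenesis factor, and MARS2, the mitochondrial methionyl-tRNA synthetase, had interactions of 2.51, 2.47, 2.33 and 2.21, with differences of -0.11 to 0.37 between H epi and N epi. MARS2 was under the presence threshold on all 6 arrays.

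Cytokine and immediate early genes had the lowest list medians, and both medians rested on N epi 2. Of 21 genes of inflammatory cytokines and NF-kB signalling, 2 were lower, against 6% of all genes, CXCR4 and LIF, a cytokine of the IL-6 family. LIF read 6.88, 7.68 and 7.36 in N epi and 6.88, 6.34 and 5.93 on the H epi arrays, a fall of 0.92 that did not pass without N epi 2. The list median was -1.13 with all arrays and -0.21 without N epi 2. That array was the highest of the 6 in 19 of the 21 genes, against 6292 of all 24424 probe sets.

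Of 29 immediate early and ERK feedback genes, 2 fell with all arrays, again near the share of all genes, the AP-1 members JUND and FOSL1, and the median was -1.35 (-0.22 without N epi 2). N epi 2 was the highest array in 27 of the 29, against 6292 of the 24424 probe sets tested. JUND read 9.12, 10.64 and 8.67 in N epi and 8.32, 7.78 and 7.42 on the H epi arrays, a fall of 1.64 (1.06 without N epi 2), and FOSL1 fell by 1.17 (0.69 without N epi 2). Without N epi 2, 5 of the 29 were lower, where 3.62% of all genes were. In that fit JUN, IER3 and IER5 also passed, with falls of 0.97, 0.92 and 0.98. Neither JUND nor FOSL1 passed with the arrays numbered 1 and 2 only.

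**Figure D4:**
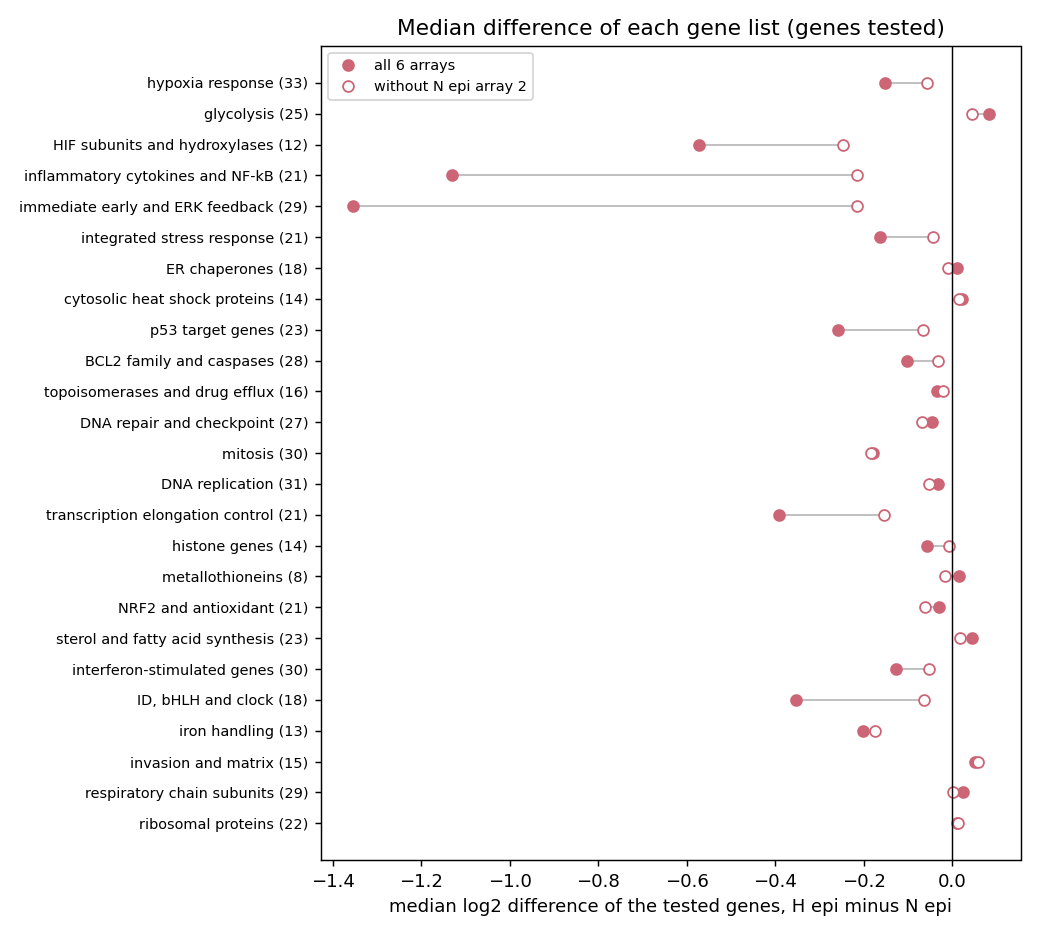
Median log2 difference between H epi and N epi (horizontal axis) of the tested genes of each of 25 gene lists, with all 6 arrays (filled) and without N epi 2 (open). The cytokine and immediate early lists move from -1.13 and -1.35 to -0.21 and -0.22, while the lists of glycolysis, respiratory chain and ribosomal proteins lie close to 0 in both.

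Genes of the drug's target and of the DNA damage response are given beside the 6% of all genes that were lower. TOP2A, the topoisomerase II of dividing cells, read 11.38, 11.57 and 11.46 in N epi and 11.44, 11.51 and 11.43 on the H epi arrays, a difference of -0.01 (interval -0.25 to 0.23), and TOP2B differed by 0.01 (interval -0.23 to 0.26). Of 16 genes of topoisomerases and drug efflux, 0 passed. Of 27 genes of DNA repair and checkpoint control, 3 were lower, TOPBP1, an activator of the ATR kinase, RAD9A, a part of the checkpoint clamp, and MSH6, a mismatch recognition protein. RAD9A read 5.48, 5.44 and 5.54 in N epi and 4.92, 4.23 and 4.28 on the H epi arrays, a fall of 1.01. TOPBP1 fell by 1.05 and MSH6 by 0.78, and MSH6 did not pass without N epi 2.

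Of 23 p53 target genes, XPC, a damage sensor of nucleotide excision repair, fell by 1.21, and CDKN1A, the cyclin-dependent kinase inhibitor p21, fell by 0.93. XPC read 5.91, 6.38 and 5.85 in N epi and 5.60, 3.80 and 5.09 on the H epi arrays, with H epi 2 apart from the rest. CDKN1A read 8.64, 9.56 and 8.25 in N epi and 8.06, 7.75 and 7.86 on the H epi arrays. Neither passed without N epi 2, when 0 of the 23 were lower. Of 28 genes of the BCL2 family and caspases, 0 passed (median -0.10).

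Of 30 mitotic genes, 3 were lower, by less than 1 unit, against 6% of all genes (3.62% without N epi 2), and AURKA and CENPF passed with and without N epi 2. AURKA, a spindle pole kinase, read 11.35, 11.46 and 11.12 in N epi and 10.68, 10.44 and 10.55 on the H epi arrays, a fall of 0.75 (SE 0.11, adjusted p = 0.001709) that also passed without N epi 2 and with the arrays numbered 1 and 2 only. CENPF, a kinetochore protein, read 9.80, 9.86 and 9.74 and then 9.26, 9.21 and 9.26, a fall of 0.56, while its other probe sets did not pass (0.65 and -0.12). CDC25C, the phosphatase that activates CDK1, fell by 0.57 and did not pass without N epi 2, and its other probe set differed by 0.15. Of the 3 probe sets of AURKA, 2 were lower. AURKA and CENPF were also lower in H than in N, by 0.66 and 0.36. Of 31 genes of DNA replication and of 14 histone genes, 0 passed.

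In each of the other lists at most 2 members were lower, where 6% of all genes were. Of 21 genes of transcription elongation, CDK12, a kinase of RNA polymerase II, fell by 1.10 and CCNT1, the cyclin of P-TEFb, by 0.98, and neither passed without N epi 2. Their other probe sets disagreed: 4 of the 5 for CDK12 did not pass (-0.46 to 0.03), nor did the second for CCNT1 (0.14). Of 18 ID, bHLH and clock genes, ID2, an inhibitor of bHLH factors, read 5.64, 8.77 and 5.59 in N epi and 4.31, 4.33 and 4.18 on the H epi arrays, a fall of 2.39 (1.34 without N epi 2). Of 30 interferon-stimulated genes, IRF9, a part of the ISGF3 complex, fell by 1.54 and IRF7 by 1.06. IRF9 read 5.37, 6.62 and 4.94 in N epi and 4.48, 3.73 and 4.11 on the H epi arrays, and IRF7 did not pass without N epi 2.

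Of 21 NRF2 and antioxidant genes, KEAP1, the repressor of NRF2, fell by 1.07 and SRXN1, a sulfiredoxin, by 0.75. KEAP1 read 7.93, 8.71 and 7.40 and then 7.18, 6.69 and 6.97, and it passed also with the arrays numbered 1 and 2 only. Of 8 metal-response genes in the metallothionein list, SLC30A1, a zinc exporter, fell by 1.51. Of 13 genes of iron handling, SLC11A2, an iron importer, fell by 1.04 and had fallen in control cells. Of 14 cytosolic heat shock genes, the co-chaperones BAG3 and DNAJB4 fell by 0.81 and 0.82. SRXN1 and DNAJB4 did not pass without N epi 2. Of 21 genes of the integrated stress response, 18 ER chaperones, 23 of sterol and fatty acid synthesis, 15 of invasion and matrix, 29 respiratory chain subunits and 22 ribosomal proteins, 0 passed in either direction. Of the 25 lists, 0 had a member that was higher in H epi by its brightest probe set, and 4 had one by any probe set. CLSPN, a mediator of checkpoint signalling, differed by 0.61 (interval 0.22 to 1.00) without passing, and it was higher with quantile normalization and with centring on the median. Over all lists, with a gene counted once in each list that holds it, 26 of 542 members were lower (4.8%), against 6% of all genes.

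The level of the 1080 probe sets that were lower in H epi was followed over the series. Their median signal was 8.87 in N, 8.70 in H, 7.04 in N epi and 5.97 in H epi. The step from N epi to H epi is fixed by how this set was chosen. By array the median was 6.81, 7.62 and 6.78 on N epi 1 to 3 and 6.17, 5.73 and 6.07 on H epi 1 to 3. The arrays without epirubicin entered the choice through the shared spread and the presence filter, but not through their own differences between oxygen levels. On those arrays the same probe sets differed by a median of -0.17 between H and N and of -0.11 between H tax and N tax. In 1015 of the 1080 the N epi mean lay under the N mean, a share that was not counted over all probe sets. The N epi arrays also had the lower upper quartile of the signal. In 872 of the 1080, N epi 2 lay closer to the N mean than both other N epi arrays, against 12769 of all 24424. The N epi values behind that count also chose the set, so it is no separate support. The H epi arrays were all under the presence threshold in 48 of the 1080. Median gene length was 36.6 kb for the 839 named genes lower in H epi, 33.6 kb for those lower without N epi 2, 35.9 kb for the 169 higher and 29.98 kb for all genes tested. The part of the deviation of N epi 2 in the calls that were lost without it was not tested.

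**Figure D5:**
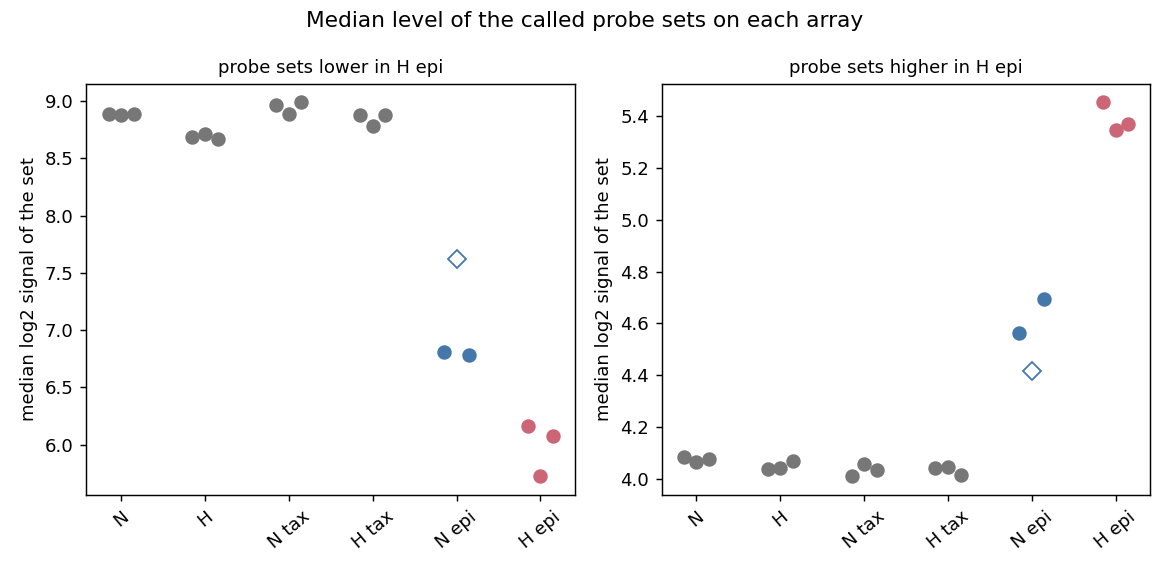
Median log2 signal (vertical axis) of the probe sets that were lower (left) and higher (right) in H epi than in N epi, with 1 point per array in the 6 conditions. Epirubicin arrays lie below the other 12 on the left, with N epi 2 (open diamond) at 7.62 between them and N epi 1 and 3, and above the other 12 on the right.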

How the data were processed

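The 18 arrays of MDA-MB-231 cells were deposited in a single matrix of log2 values. Per the labels and the methods, the authors extracted RNA with Trizol and normalized the arrays with GC-RMA (version not given in the sources used here); the deposited log2 values run from 2.23 to 16.6. The methods name AffyProbeMiner definitions, while the probe sets carry standard Affymetrix names. After 62 control probe sets were set aside, 24424 of 54613 probe sets were tested, those above 3.23 (1 log2 unit over the lowest value, after the authors' rule of 2 times the basal signal) on at least 2 of 3 arrays of a condition. Names came from the annotation of the platform, updated by Entrez ID, and 41091 probe sets had 1 symbol, 1801 several and 11721 none, and the latter kinds were not named. In gene lists, the probe set with the highest mean over the 18 arrays stood for its gene.

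limma 3.58.1 (R 4.3.3, data.table, version 1.17.8) was fitted to the 6 conditions, with 12 residual and 2.84 prior degrees of freedom, two-sided tests and Benjamini-Hochberg adjustment over all tested probe sets, threshold 0.05. The methods do not name the test behind their p-values. The number of arrays limits the precision, and the SE and intervals assume an equal spread in the 6 conditions. A fold against arrays all under the presence threshold is a lower bound. The genes named were the 12 largest rises and falls without overlap of arrays, the 6 lowest and highest interactions, up to 3 called members per list and a fixed set of hypoxia, HIF and topoisomerase genes; 1 gene chosen by the rule is not reported here. JUN, IER3, IER5, DDIT4, BHLHE40, ANGPTL4, ANKRD37 and LOX were chosen after their values were seen. Members, lists and rules were chosen with earlier results of these data known. In each count, 29 alternative fits were made. The fit was tested on simulated data.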

Additional observations from a re-analysis of the deposited data

Results flagged for a closer look

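By the interaction test, the effect of 1% oxygen was higher with epirubicin than without drug for 1674 probe sets and lower for 1263. Among the genes named, the difference (effect with epirubicin minus effect in control cells, log2) was lowest for SPAG4 (-6.28), MIR210HG (-6.07), DEPP1 (-5.90), ALDOC (-5.43) and ADM (-5.41), and highest for TFRC (3.02), SLC7A11 (2.81), SCLT1 (2.51), WDR4 (2.47), RRS1 (2.33) and MARS2 (2.21). The interaction contains the H epi minus N epi difference by which the largest falls and rises were chosen, so passing it is no separate support for them. Over all probe sets, 5.17% passed below 0 and 6.85% above 0. Of the 12 largest falls in H epi, 8 passed: CXCR4 (-4.17), KRCC1 (-3.65), PHLDA1 (-3.54), SOX9 (-3.50), FOXO3 (-3.32), SOX4 (-3.30), DCP1A (-3.25) and SIAH1 (-2.84). Of the 12 largest rises, 8 passed: CYB5RL (1.69), MALAT1 (1.61), PSMD9 (1.46), ABHD11 (1.41), PRCP (1.31), VMA21 (1.23), ATPAF1 (1.15) and AFMID (1.13).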

How the results depend on the processing

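Counts are given as lower and higher in H epi, then interactions below and above 0; with all arrays they were 1080, 222, 1263 and 1674. With the arrays numbered 1 and 2 only, they were 270, 89, 522 and 392, and leaving out the second N epi array as well, 137, 56, 405 and 212. Grouping the arrays numbered 3 by source name gave 0 in all 4 counts, with 293 probe sets at an unadjusted p under 0.05 between H epi and N epi. Fitting only the arrays compared gave 0 and 0 (2678 at an unadjusted p under 0.05), and 994 and 1465 for the interactions. Without a presence filter, 507 were lower and 833 interactions were below 0. Quantile normalization gave 452 higher and centring on the median 614 higher. Leaving out 1 array at a time gave 467 (without H epi 2) to 1644 (without N epi 3) lower, 135 (without N epi 2) to 346 (without N epi 3) higher, and 860 to 1535 and 1136 to 1895 interactions. The deviations of same-numbered N epi and H epi arrays correlated at 0.02, 0.05 and 0.10, and those of differently numbered arrays at -0.08 to -0.003. With 3 arrays per condition, such small values cannot decide whether the numbers pair the arrays. With the replicate block the counts were 923, 208, 1248 and 1651. The 49 named probe sets that passed kept their direction in every alternative fit that tested them; 0 passed with source-name grouping or with the 6 arrays alone, 15 with the arrays numbered 1 and 2, 22 without the filter, 30 without H epi 2, 32 without H epi 3 and 37 without N epi 2. Beyond the constructions named here, the cause was not tested. Signals near the floor limit what can be seen of weak genes.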
